A study of Mus musculus with 3 samples.

Results

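The genes described here encode 10 members and partners of the transforming growth factor-β (TGF-β) superfamily of secreted signals, namely Tgfb1, Tgfb2, Tgfb3, Inhba, Inhbb, Bmp2, Bmp4, Bmp6, Gdf5 and Bmp1. They were chosen as every probe set of the array that the platform annotation gives to 1 of these gene symbols alone, which found 18 probe sets for 10 of the 18193 genes read on the arrays. PDL-L2 is an immortalised fibroblastic line from mouse periodontal ligament, and 3 RNA samples were read, each on 1 Affymetrix whole-genome mouse array. The first sample came from cells transfected with a pool of siRNAs against endoglin (siENG) and exposed to recombinant human BMP-2 at 250 ng/ml, the second from cells given a control siRNA pool (siCont) and the same BMP-2, and the third from siCont cells given vehicle. In all of them the exposure lasted 12 h, began 48 h after transfection, and took place in a medium with ascorbic acid and beta-glycerophosphate. No siENG sample with vehicle was among the 3. A change made by the siRNA pool on its own therefore cannot be told apart from a change in the response to BMP-2. The study asked which responses of these cells to BMP-2 need endoglin, an accessory receptor for the TGF-β family.

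Ligands of this family are made as precursors, cleaved by proprotein convertases such as furin, and secreted as dimers. TGF-βs stay bound to their own propeptide and to latent TGF-β binding proteins in the matrix until integrins, thrombospondin or proteases free them, and they signal mainly through Smad2 and Smad3, as activins do. BMPs and some growth and differentiation factors signal mainly through Smad1, Smad5 and Smad8. The authors reported earlier that BMP signalling through endoglin in periodontal ligament cells depended on Smad2 and not on phosphorylation of Smad1, Smad5 and Smad8. In periodontal ligament and bone the family is known for its part in matrix production and in the differentiation of fibroblastic cells into osteoblasts and cementoblasts.

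Every difference below rests on 1 array per condition, so none has a replicate check and no test or p-value is given. Values are linear signal intensities as deposited, and a log2 ratio sets 1 array against another. Each gene was represented by its probe set with the highest mean log2 signal. It entered a comparison (was kept) if 1 or both of its signals there reached 23.0, the median over the arrays. The spread of log2 ratios among all probe sets of similar mean signal, as a scaled median absolute deviation (robust SD), serves as a yardstick. The siENG array was brighter than the others, and over probe sets past that limit the median log2 ratio was 0.21 to siCont BMP-2 and 0.22 to siCont vehicle. "Relative" log2 ratios have the median of their own comparison taken off, which was 0.01 for siCont BMP-2 over vehicle. Endoglin itself had signals of 108 with siENG and BMP-2, 299 with siCont and BMP-2 and 286 with siCont and vehicle in its brighter probe set, so it was lowest on the array labelled siENG. Of 13 listed markers of periodontal ligament fibroblasts 11 were measured and 8 kept, and the summed signal of the 11 was 26076 with siENG and BMP-2, 25664 with siCont and BMP-2 and 23900 with siCont and vehicle. The listed markers Tnmd, Aspn and Thy1 did not exceed 13.1 on any array, the highest signal seen on control probe sets for Bacillus transcripts, which serve here as a background level. Summed signals with siENG and BMP-2, with siCont and BMP-2 and with siCont and vehicle were 61.7, 111 and 110 for 6 epithelial markers, 48.1, 51.4 and 27.2 for 6 endothelial markers, 264, 197 and 203 for 7 leukocyte markers, 71.9, 119 and 72.4 for 4 markers of osteoblasts and cementoblasts, and 34.6, 28.8 and 25.0 for 2 markers of Schwann cells. None of these sums was at 0. Some of the markers did not exceed 13.1 on any array, and others did. The part of other cell types in the ratios below was not tested. As RNA was taken from whole cultures of this single line, fewer cells making a transcript and less of it per cell cannot be told apart.

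Of the 10 genes, 8 were kept in every comparison, and each of these 8 had a signal above the limit on all arrays. Bmp2 and Gdf5 were not kept. With BMP-2 in siCont cells, 1 of the 8 (Tgfb3) reached a ratio of 2 over vehicle, against 1.80% of the 10810 genes kept, and 0 were at 0.5 or less, against 1.57%. The median log2 ratio of the 8 was -0.13, against 0.01 over all genes kept. The genes did not move as a block, since 3 were higher with BMP-2 (Tgfb3, Inhbb and Bmp1) and 5 lower (Tgfb1, Tgfb2, Bmp4, Bmp6 and Inhba). The relative log2 ratio was above 0 by more than the robust SD for those 3 genes, against 18.0% of all genes kept, and below 0 by more than it for 4 genes (Tgfb1, Tgfb2, Bmp4 and Bmp6), against 18.1%.

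**Figure D1:**
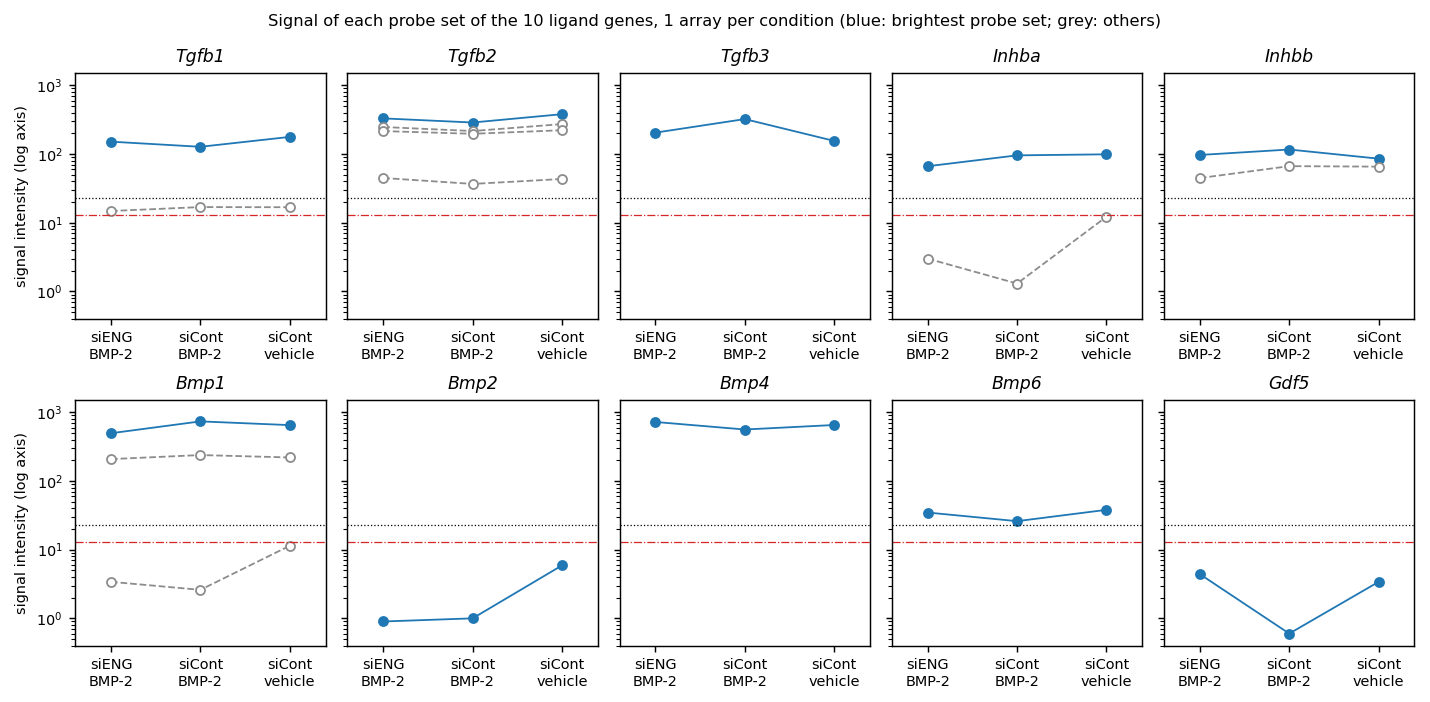
Signal intensity (log axis) of every probe set of the 10 genes on the 3 arrays, with a line joining the signals of 1 probe set. Blue marks the brightest probe set and grey the others, the dotted line is the limit of 23.0, and the dash-dotted line is the highest Bacillus control signal, 13.1. Tgfb3 peaks on the siCont BMP-2 array, where the brightest probe sets of Tgfb1, Tgfb2, Bmp4 and Bmp6 have their lowest signals.

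Among the TGF-β isoforms, Tgfb3 stood apart from Tgfb1 and Tgfb2. TGF-β3, known for its role in palate fusion, was read by 1 probe set, which gave 323 with BMP-2 against 155 with vehicle, both in siCont cells. Its log2 ratio of 1.06 compares with a robust SD of 0.19, and 7 of the 2252 probe sets of similar signal, itself included, had a ratio as high. With 16 added to every signal the log2 ratio was 0.98, short of a ratio of 2. The study listed this gene among those induced on these same arrays, so its direction here is not independent evidence. The study also reported its induction by BMP-2 in real-time PCR on samples prepared independently of the arrays. Tgfb1, which encodes the isoform stored in platelets and bone matrix, had a signal of 127 with BMP-2 against 178 with vehicle. This was a log2 ratio of -0.48 with a robust SD of 0.21, and 62 of 2252 probe sets of similar signal were as low or lower. Its second probe set lay below the limit, at 16.9 with BMP-2 and 16.8 with vehicle, and so did not show the difference.

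Tgfb2, needed for heart and craniofacial development, was read by 4 probe sets, all above the limit and all lower with BMP-2. The brightest had signals of 288 with BMP-2 and 380 with vehicle, a log2 ratio of -0.40 with a robust SD of 0.17. The next had 216 with BMP-2 and 273 with vehicle, a log2 ratio of -0.34. The remaining pair had log2 ratios of -0.17 and -0.24, each within its robust SD of 0.21 and 0.44. The 4 readings of Tgfb2 therefore shared a direction but not a size, and probe sets of 1 gene share their RNA, so they are not replicates. Over the 5406 genes with a second probe set above the limit, the brightest and second brightest differed by a median of 0.15 log2 units in this comparison.

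Of the activin subunits, Inhba differed little with BMP-2 and Inhbb in its brighter probe set only. Inhba encodes the βA chain of activin A, and its brighter probe set had 95.6 with BMP-2 against 99.0 with vehicle, a log2 ratio of -0.05. Inhbb encodes the βB chain of activin B and was read by 2 probe sets that did not give the same answer. The brighter had 116 with BMP-2 and 85.6 with vehicle, a log2 ratio of 0.44 beyond its robust SD of 0.26, while the other had 66.6 with BMP-2 and 65.5 with vehicle, a log2 ratio of 0.02. The higher reading of Inhbb with BMP-2 thus rests on 1 of its 2 probe sets.

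Both BMP ligands above the limit were lower with the added BMP-2. Bmp4, a close relative of BMP-2 that acts on the same receptors, had a signal of 561 with BMP-2 against 653 with vehicle. Its log2 ratio of -0.22 compares with a robust SD of 0.15, and 173 of 2252 probe sets of similar signal were as low. Bmp6, which in liver controls hepcidin and so iron balance, had 26.0 with BMP-2 against 38.0 with vehicle, a log2 ratio of -0.55 where the robust SD was 0.44. Its signals were near the limit of 23.0, and its robust SD was the widest of the 8 genes.

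The probe set for Bmp2 itself read the endogenous mouse transcript at or below the level of the Bacillus controls on every array, with signals of 0.9 with siENG and BMP-2, 1.0 with siCont and BMP-2 and 5.9 with siCont and vehicle. Gdf5, a ligand of joint and tendon formation, had 4.4 with siENG and BMP-2, 0.6 with siCont and BMP-2 and 3.4 with siCont and vehicle. With all of these signals at or under 13.1 no ratio is given for either gene. The same holds for the dimmest probe sets of Inhba and Bmp1, whose highest signals were 12.2 and 11.4.

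Bmp1 is not a ligand in spite of its name. It encodes a metalloproteinase of the tolloid family that trims procollagens and releases BMPs from chordin. Its brightest probe set had a signal of 737 with BMP-2 against 650 with vehicle, and its log2 ratio of 0.18 was just beyond the robust SD of 0.15. The second had 238 with BMP-2 and 220 with vehicle, a log2 ratio of 0.12 within the robust SD of 0.19.

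**Figure D2:**
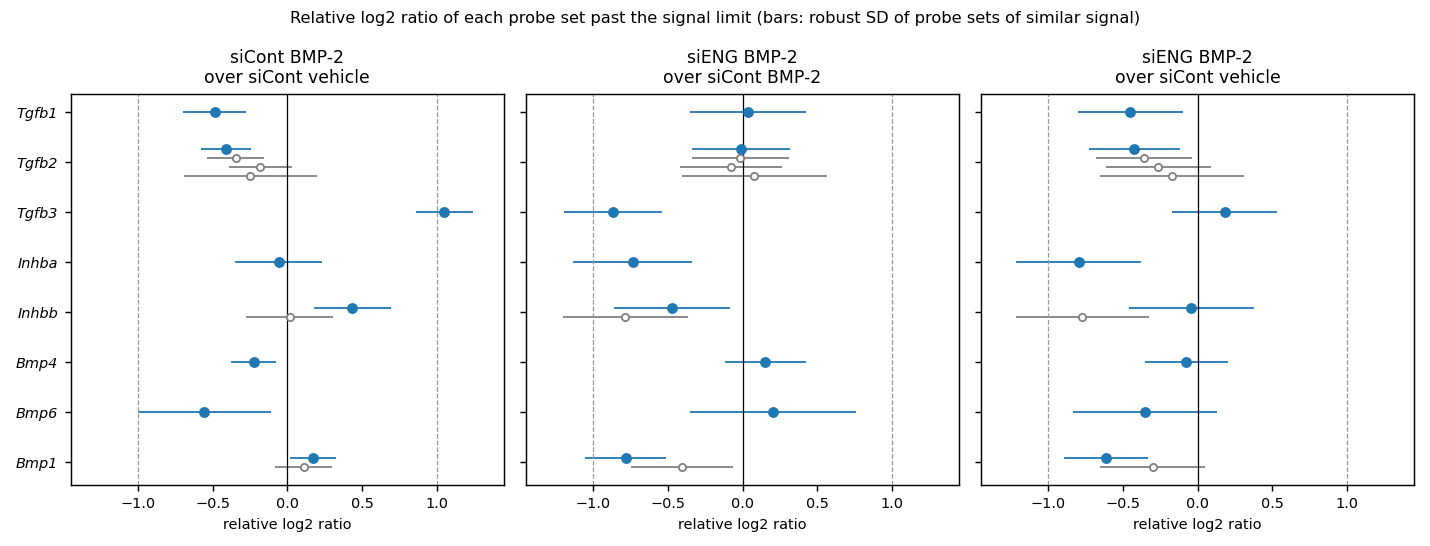
Relative log2 ratio of each probe set past the signal limit for the 8 genes kept, in 3 comparisons, with bars for the robust SD of probe sets of similar signal. Filled blue points are the brightest probe sets, open grey points the others, and dashed lines mark ratios of 2 and 0.5. Tgfb3 lies at 1.05 in the first panel and -0.87 in the second, and Tgfb1 and Tgfb2 lie below 0 in the first and near 0 in the second.

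Promoter letters are shown for the genes that were lower with BMP-2 by more than the robust SD, so that they can be compared with each other. RefSeq windows of 300 bases around the gene start (build GRCm38.p6) were matched for 6 of the 10 genes, and not for Tgfb3, Bmp1, Bmp2 or Gdf5. The 250 bases before the start are printed, 5′ to 3′ on the strand of the gene, with capitals where a searched motif was found on either strand. The windows are chr7:25686752-25687001 (plus strand) for Tgfb1, chr1:186705990-186706239 (minus) for Tgfb2, chr14:46390670-46390919 (minus) for Bmp4 and chr13:38345466-38345715 (plus) for Bmp6.
Tgfb1: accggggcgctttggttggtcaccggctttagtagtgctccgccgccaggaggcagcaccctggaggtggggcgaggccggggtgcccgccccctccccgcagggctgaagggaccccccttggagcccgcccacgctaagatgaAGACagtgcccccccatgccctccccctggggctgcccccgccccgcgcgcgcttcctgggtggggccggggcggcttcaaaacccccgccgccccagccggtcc
Tgfb2: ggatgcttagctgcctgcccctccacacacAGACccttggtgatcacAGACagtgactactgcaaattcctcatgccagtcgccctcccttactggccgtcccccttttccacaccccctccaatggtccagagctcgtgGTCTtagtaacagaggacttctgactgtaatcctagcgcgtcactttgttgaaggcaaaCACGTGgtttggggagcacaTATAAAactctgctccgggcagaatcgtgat
Bmp4: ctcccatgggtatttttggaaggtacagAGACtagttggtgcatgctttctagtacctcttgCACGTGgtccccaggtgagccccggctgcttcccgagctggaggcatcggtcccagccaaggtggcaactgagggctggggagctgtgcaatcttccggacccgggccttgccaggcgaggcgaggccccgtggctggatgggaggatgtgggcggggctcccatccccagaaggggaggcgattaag
Bmp6: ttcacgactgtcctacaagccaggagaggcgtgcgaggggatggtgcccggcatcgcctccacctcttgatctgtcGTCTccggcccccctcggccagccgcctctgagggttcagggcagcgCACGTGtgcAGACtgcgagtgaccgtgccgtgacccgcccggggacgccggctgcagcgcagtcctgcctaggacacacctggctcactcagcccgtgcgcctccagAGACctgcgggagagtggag
Short motifs were searched on both strands of the whole windows. AGAC is the run of letters that the DNA-binding domain of Smads reads, and GGCGCC is a GC-rich motif also bound by Smads. ACGTG is the core of the hypoxia response element. TGACTCA is the AP-1 site of Fos and Jun. TGACGTCA is the cyclic AMP response element. TATAAA is the TATA box. AGAC was in 6 of the 6 windows of these genes and in 88.0% of all 32851 windows, so its presence tells the genes from no others. ACGTG was in 3, those of Tgfb2, Bmp4 and Bmp6, against 19.6% of all windows. In each of the 3 it was found on both strands at once, as the palindrome CACGTG, which 7.15% of all windows held and which was looked for after these matches were seen. It began at position -51 from the start in Tgfb2, -188 in Bmp4 and -127 in Bmp6. TATAAA was in 2 windows, at -31 in Tgfb2 and at -91 in Inhba, against 13.6% of all windows. The GC-rich Smad motif, the AP-1 site and the cyclic AMP response element were in 0 of the 6, against 11.9%, 5.20% and 1.79% of all windows. The Tgfb1 window had a GC content of 77.0% and the Tgfb2 window 54.3%, against a median of 52.7%. These matches are letters only, and no binding was measured.

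Between the siENG and siCont cells, both with BMP-2, 0 of the 8 genes reached a ratio of 2, against 4.04% of the 10854 genes kept, and 0 were at 0.5 or less, against 1.66%. The siCont BMP-2 array serves in this comparison and in that with vehicle, so a reading there enters both ratios with opposite signs. The relative log2 ratio was below 0 by more than the robust SD for 4 genes (Tgfb3, Inhba, Inhbb and Bmp1), against 16.5% of all genes kept, and above 0 by more than it for 0, against 19.5%. Over the 8 genes, the median was -0.03 on the deposited scale and -0.24 on the relative one.

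Tgfb3 had a signal of 205 with siENG against 323 with siCont, both with BMP-2. The log2 ratio was -0.66, or -0.87 relative, with a robust SD of 0.33, and 32 of 2252 probe sets of similar signal were as low. The siENG signal lay between the 2 siCont arrays, above the 155 of siCont cells with vehicle. Tgfb1, at 151 with siENG against 127 with siCont, and Tgfb2, at 330 with siENG against 288 with siCont in its brightest probe set, had relative log2 ratios of 0.04 and -0.01. The other 3 probe sets of Tgfb2 had relative log2 ratios of -0.01, -0.08 and 0.08. All 4 readings of Tgfb2 were thus within 0.1 of the median shift of the array, while for Tgfb1 this holds for 1 probe set. The other probe set of Tgfb1, below the limit, had 14.8 with siENG against 16.9 with siCont.

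The activin subunits had lower signals with siENG in their probe sets above the limit. Inhba had a signal of 66.4 with siENG against 95.6 with siCont, a log2 ratio of -0.53 (relative -0.74) where the robust SD was 0.40. For Inhbb the brighter probe set had 96.9 with siENG against 116 with siCont, and the dimmer 44.7 with siENG against 66.6 with siCont, which gave log2 ratios of -0.26 and -0.58 (relative -0.47 and -0.79) with robust SDs of 0.39 and 0.42. For the brighter probe set the value as deposited was within the robust SD, and only the relative value was beyond it. In this comparison the probe sets of Inhbb shared a direction, which they did not clearly do with BMP-2 alone.

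The protease gene Bmp1 had 496 with siENG against 737 with siCont, a log2 ratio of -0.57 (relative -0.78) where the robust SD was 0.27, and 51 of 2252 probe sets of similar signal were as low. The second probe set had 208 with siENG against 238 with siCont. Its log2 ratio of -0.20 as deposited was within the robust SD of 0.34, and only the relative value of -0.41 was beyond it. The ligands Bmp4 and Bmp6 went the other way as deposited. Bmp4 had 722 with siENG against 561 with siCont, a log2 ratio of 0.36 beyond the robust SD of 0.27, but the relative value of 0.15 was within it. Bmp6 had 34.7 with siENG against 26.0 with siCont, a relative log2 ratio of 0.21 within a robust SD of 0.56.

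**Figure D3:**
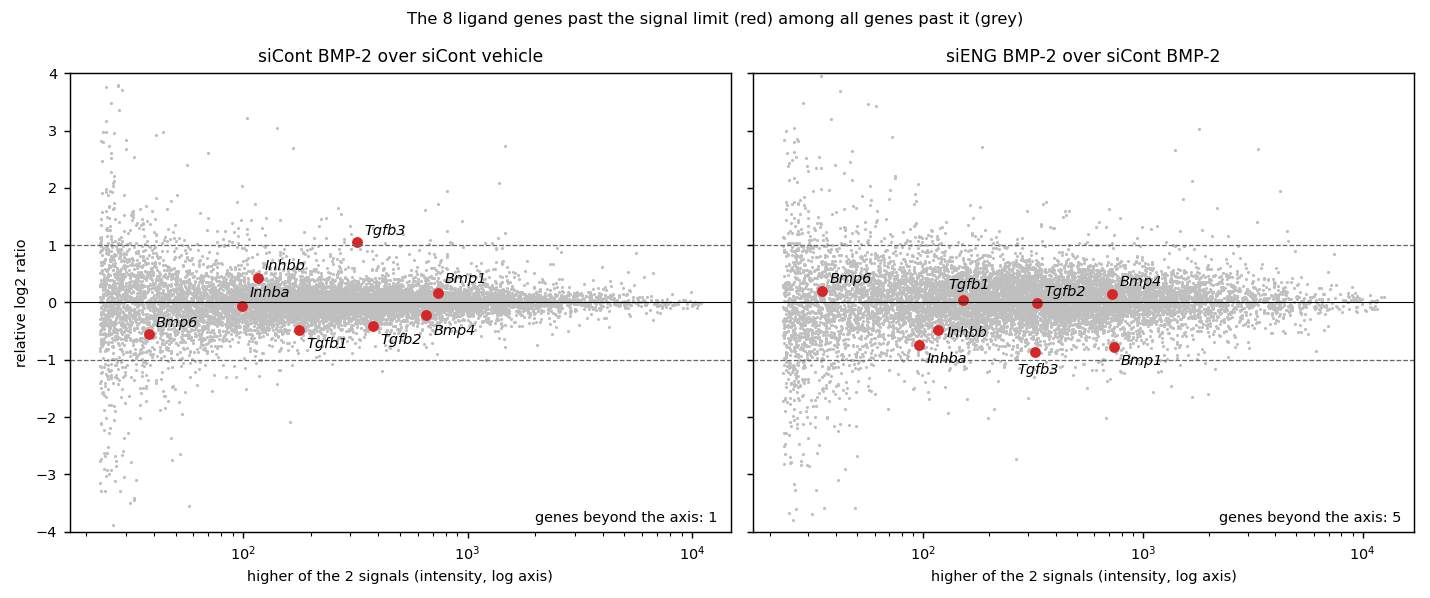
Relative log2 ratio against the higher of the 2 signals compared (intensity, log axis) for all genes past the signal limit in grey and the 8 genes in red, for siCont BMP-2 over vehicle on the left and siENG over siCont with BMP-2 on the right. Dashed lines mark ratios of 2 and 0.5. Tgfb3 lies above the bulk of the grey points of its signal on the left, and with Inhba and Bmp1 below it on the right.

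The siENG BMP-2 array was also set against siCont vehicle, a comparison that differs in siRNA and in exposure. Again 0 of the 8 genes reached a ratio of 2, against 3.99% of the 10847 genes kept, and 0 were at 0.5 or less, against 1.73%. By relative log2 ratio 4 genes were below 0 by more than the robust SD, against 16.5% of genes kept, and 0 were above it, against 19.3%. The 4 were Inhba (-0.80, with 66.4 in siENG BMP-2 and 99.0 in vehicle), Bmp1 (-0.61, with 496 in siENG BMP-2 and 650 in vehicle), Tgfb1 (-0.45, with 151 in siENG BMP-2 and 178 in vehicle) and Tgfb2 (-0.42, with 330 in siENG BMP-2 and 380 in vehicle). As deposited, Tgfb1 at -0.23 and Tgfb2 at -0.20 were within their robust SDs of 0.35 and 0.30. The other probe set of Tgfb1, below the limit, had a relative log2 ratio of -0.40 within its robust SD of 0.74. Tgfb3 had a log2 ratio of 0.40 as deposited, beyond the robust SD of 0.35, and of 0.18 relative, within it. For Bmp1 and Tgfb2 the readings beyond the robust SD came from some of the probe sets only. The second probe set of Bmp1, with 208 in siENG BMP-2 and 220 in vehicle, had a relative log2 ratio of -0.30 within its robust SD of 0.35, and 2 of the 4 probe sets of Tgfb2 were also within theirs. Inhbb was read differently by its probe sets. The brighter had a relative log2 ratio of -0.04, while the dimmer, with 44.7 in siENG BMP-2 and 65.5 in vehicle, had -0.77 (-0.55 as deposited), beyond its robust SD of 0.44. Bmp4 had a relative log2 ratio of -0.08 and Bmp6 of -0.35, each within its robust SD.

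Genes that store, cleave, assist or receive these ligands were listed beside them. For each list the counts can be read against the shares of all genes kept given above. Of 24 other ligands of the superfamily 18 were measured and 4 kept, and with BMP-2 none of the 4 reached a ratio of 2 or of 0.5. Their log2 ratios over vehicle were -0.95 for Lefty1, a Nodal antagonist, 0.88 for Gdf11, -0.34 for Bmp8a and -0.19 for Gdf2, with a median of -0.27. Lefty1, with 20.3 with BMP-2 against 39.1 with vehicle, and Gdf11, with 28.2 with BMP-2 against 15.3 with vehicle, passed the limit on 1 of the 2 arrays only. Between siENG and siCont the 4 had log2 ratios of -0.39 for Bmp8a (89.7 with siENG against 118 with siCont), 0.27 for Lefty1, 0.04 for Gdf2 and 0.01 for Gdf11, a relative median of -0.18.

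Of 19 genes of latent TGF-β storage and activation 17 were measured and 10 kept. With BMP-2 0 of them reached a ratio of 2 or of 0.5, and their median log2 ratio was 0.07. The extremes were Ltbp4, a latent TGF-β binding protein, at -0.64, Emilin1, which binds the TGF-β1 precursor, at -0.62, and the integrin subunits Itgb8 at 0.52 and Itgb5 at 0.42. In the siENG comparison 0 reached 2 and 1 was at 0.5 or less, as deposited and relative alike, and the relative median was -0.38. On the relative scale 2.32% of all genes kept were at 2 or more and 2.70% at 0.5 or less. That gene was Itgb8, whose integrin frees latent TGF-β, with 37.1 with siENG against 76.7 with siCont, a log2 ratio of -1.05 and a robust SD of 0.42. Thrombospondin 1 (Thbs1), another activator of latent TGF-β, had 1468 with siENG against 2449 with siCont, a log2 ratio of -0.74 with a robust SD of 0.22, and Mmp2 had a log2 ratio of -0.43. Ltbp4 had 53.8 with siENG against 28.3 with siCont, a log2 ratio of 0.93 with a robust SD of 0.49.

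Of 9 proprotein convertases 7 were measured and 4 kept. With BMP-2 1 reached a ratio of 2, Pcsk4, with 23.3 with BMP-2 against a vehicle signal of 9.1 that lay within the range of the Bacillus controls. The others had log2 ratios of -0.34 for Pcsk7, -0.09 for Furin and 0.02 for Mbtps1, and the median of the 4 was -0.04. In the siENG comparison 0 did so at either end. Furin, which cleaves TGF-β and BMP precursors, had 132 with siENG against 199 with siCont, a log2 ratio of -0.59 (relative -0.80) with a robust SD of 0.34. It was the only 1 of the 4 that was lower, and Pcsk4 had 0.94, Pcsk7 0.69 and Mbtps1 0.47, with a relative median of 0.37 over the list.

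Of 21 genes of the Bmp1 family, its enhancers and its substrates or partners, 21 were measured and 17 kept. With BMP-2 1 reached a ratio of 2, the cartilage collagen Col2a1, with 41.1 with BMP-2 against 11.5 in vehicle, a signal within the range of the Bacillus controls, and 0 were at 0.5 or less. The proteoglycan gene Ogn had a log2 ratio of -0.93 and Bgn of 0.58. Pcolce2, which enhances procollagen cleavage by Bmp1, had 1433 with BMP-2 against 862 with vehicle, a log2 ratio of 0.73 with a robust SD of 0.11. The median of the 17 was 0.07. In siENG cells with BMP-2 Pcolce2 had 873 against 1433 in siCont cells, a log2 ratio of -0.72 (relative -0.93) with a robust SD of 0.22. The crosslinking enzyme gene Loxl1 had 228 with siENG against 427 with siCont, a log2 ratio of -0.90. Bgn, with 81.2 with siENG against 41.5 with siCont, had a log2 ratio of 0.97, and Col2a1 of -0.51. As deposited 0 of the 17 reached a ratio of 2 or of 0.5, and relative to the general shift 1 was at 0.5 or less (Loxl1, -1.11), against 2.70% of all genes kept, with a relative median of -0.14.

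Of 13 receptor genes for these ligands 13 were measured and 8 kept, and 0 reached a ratio of 2 or of 0.5 with BMP-2 or with siENG over siCont. The largest log2 ratios with BMP-2 were 0.57 for Acvr1, 0.46 for Bmpr2, 0.40 for Tgfbr1 and -0.32 for Acvr1b, with a median of 0.01 over the list. Between siENG and siCont, the largest as deposited were 0.78 for Tgfbr3, which encodes betaglycan, a co-receptor related to endoglin, 0.60 for Acvr1b, 0.40 for Acvr2a and -0.38 for Tgfbr1. The order differed on the relative scale, where Tgfbr1 had -0.59, Tgfbr3 0.57, Acvr1 -0.53 and Acvr1b 0.39, each beyond its robust SD. Of the other receptors kept, only Acvr2a, at 0.19, was within its robust SD, which was 0.34. The rest were below 0 by more than theirs. As deposited, that rest and Acvr1 (-0.32, robust SD 0.33) were within their robust SDs. The relative median of the 8 was -0.32.

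**Figure D4:**
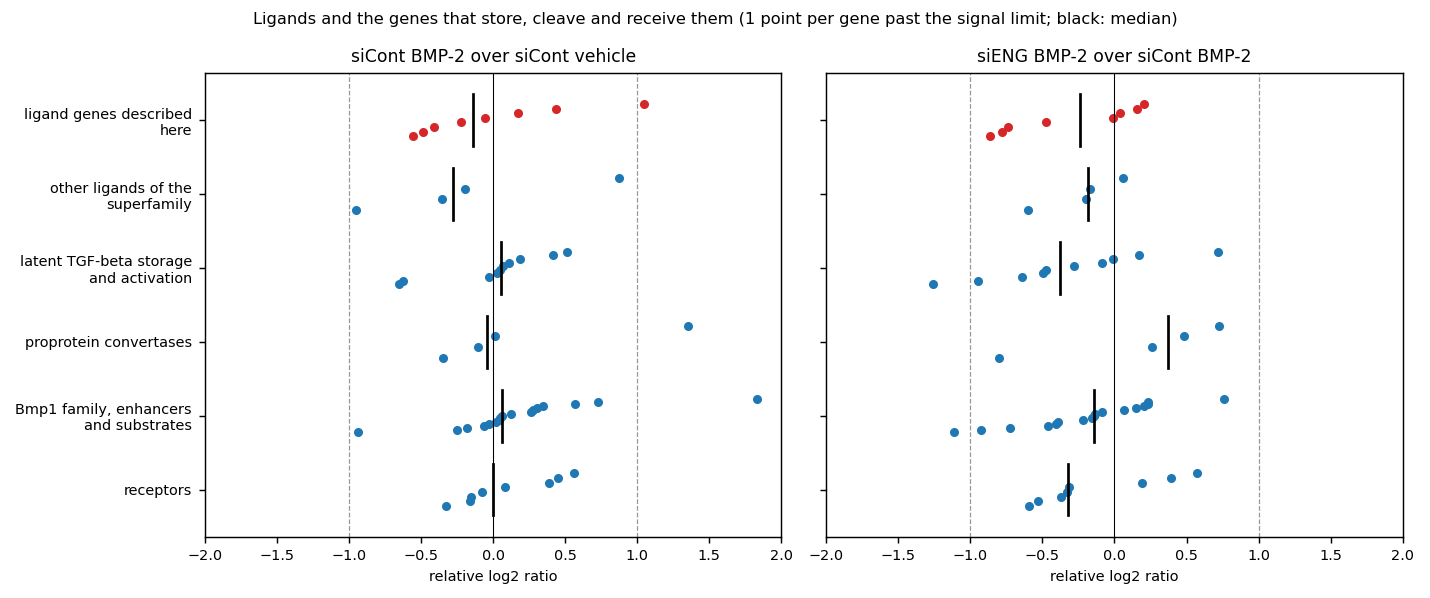
Relative log2 ratio of each gene past the signal limit, with siCont BMP-2 over vehicle on the left and siENG over siCont with BMP-2 on the right. Red marks the 8 genes kept, the protease gene Bmp1 included, and blue 5 lists of related genes. Black bars are list medians and dashed lines ratios of 2 and 0.5. On the right the lowest genes are Itgb8 among the activators and Loxl1 among the Bmp1 substrates and partners.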

How the data were processed

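The file deposited by the authors holds linear intensity values of 45101 probe sets on each array, and per the submitters' processing notes the software was GCOS 1.4. The summary of probes, the background correction and any scaling were not given in the sources used here. Probe sets for array controls (64) were left out of ratios, and a signal of 0 was set to 0.1. Symbols came from the platform annotation and were brought up to date with RefSeq (GRCm38.p6). The annotation pairs 34958 probe sets with a single symbol, which alone were used to name genes, 932 with more than 1 symbol and 9211 with no symbol.

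Log2 ratios were formed between arrays, and robust SDs were taken in 20 bins of mean log2 signal over the 45037 remaining probe sets. The calculation was tested on simulated data with the same noise at every signal level. Such data could not test whether the robust SD follows the signal. The text names endoglin, the 10 genes and, from each list and comparison, at most 4 genes, those whose log2 ratios were furthest from 0. Acvr1 in the siENG comparison was added for its relative log2 ratio, and Tnmd, Aspn and Thy1 for their low signals. These additions were chosen after their values were seen. Genes, lists and alternatives were chosen with earlier results of these data known. The number of arrays limits the precision. Python 3.11.15 was used with numpy 2.4.6, pandas 2.3.3, scipy 1.17.1, statsmodels 0.14.6 and matplotlib 3.10.9.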

Additional observations from a re-analysis of the deposited data

How the results depend on the processing

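Each of 10 alternatives changed 1 choice: the signal limit (dropped, raised to the upper quartile of 152, or replaced by a floor at 23.0), the scaling (quantile, median, 2% trimmed mean or lowess with fraction 0.3), a pseudocount of 16, and how a gene was read (the mean over its probe sets or its second brightest). With BMP-2 over vehicle, the 1 gene at 2-fold (Tgfb3) became 0 with the pseudocount, where its log2 ratio was 0.98, and 0 with the second brightest probe set, which Tgfb3 does not have. The 0 genes at 0.5 or less became 2 with no limit (Bmp2 and Gdf5, both within the range of the Bacillus controls) and 1 with the mean over probe sets, where the dim second probe set of Inhba brought its log2 ratio to -1.64. For siENG over siCont, 1 gene reached 2-fold with no limit (Gdf5). For siENG with BMP-2 over siCont with vehicle, 1 gene was at 0.5 or less with no limit (Bmp2) and 1 with the mean over probe sets (Inhba, -1.30). The other counts did not move, and no median over the genes moved by more than the median of their robust SDs. Of 214 log2 ratios of single genes under the alternatives, 204 moved by less than their robust SD, and the other 10 were of Tgfb1, Inhba, Inhbb and Bmp1 read through other probe sets. Many of the 204 could not move, so their number overstates the stability. Changes of the signal limit left each ratio as it was, because the 8 genes were above 23.0 on all arrays. The mean over probe sets did the same for genes with 1 probe set. The sign changed in 15 of the 214, for genes with a log2 ratio under 1 in size. With BMP-2 this was Bmp1 (-0.61 with the mean over probe sets). For siENG over siCont it was Tgfb2 under all 4 scalings, and over vehicle Bmp4 and Inhbb under the same scalings, and Inhbb also under both other readings of its probe sets. No paired analysis was possible because each condition had 1 array.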
